A study of Arabidopsis thaliana with 9 samples.

Results

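The genes described are 7 of the 28117 in the expression table of an Arabidopsis thaliana seedling study: ARID2 (AT2G17410), ARID3 (AT1G20910), ARID4 (AT1G76510), EPCR1 (AT4G32620), EPCR2 (AT5G04670), ARID1 (AT2G46040) and ARID5 (AT3G43240). They were chosen by locus identifier, and all 7 were found. The first 5 are the genes mutated in the study, and ARID1 and ARID5 are ARID paralogues left intact by the labelled genotypes. Messenger RNA was sequenced from whole seedlings of wild type (WT), the triple mutant arid2-/-arid3-/-arid4-/- (arid2/3/4) and the double mutant epcr1-/-epcr2-/- (epcr1/2), with 3 libraries of each. Seedlings of every genotype were 10 days old and were grown on MS plates under 16 h of light and 8 h of dark at 22 °C, and RNA was taken from 1 g of tissue. The kind of lesion in each gene, the alleles and the background accession are not given in the sources used here. The series title places these genes in the PEAT complexes and asks about histone deacetylation and heterochromatin silencing.

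PEAT complexes are named after their parts: PWWP-domain proteins, Enhancer of Polycomb-related (EPCR) proteins, AT-rich interaction domain (ARID) proteins and telomere repeat binding (TRB) proteins. ARID domains bind DNA. Enhancer of Polycomb proteins are best known in yeast and animals, where they hold MYST-family histone acetyltransferases in their complexes. In Arabidopsis, ARID1 is known from pollen development and ARID5 from chromatin remodelling complexes of the ISWI type.

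Values are FPKM, that is fragments scaled by transcript length and library size, and are compared between genotypes as log2(FPKM + 1), where the added 1 shrinks the fold of low genes. The libraries numbered 3 stood apart from those numbered 1 and 2 in every genotype: replicates 1 and 2 correlated by 0.994 to 0.995, and replicate 3 with either of them by 0.835 to 0.883. From the steps between the lowest values, depth was roughly 23.3 to 32.1 M fragments in replicates 1 and 2 and 57.1 to 70.4 M in replicate 3. The sharpness of these steps, at most 1, was 0.924 to 0.947 in replicates 1 and 2. In replicate 3 it was only 0.481 to 0.521, so that depth is less certain. Summed leaf and shoot markers ranged from 29722 to 34780 FPKM in WT, 9662 to 19752 in arid2/3/4 and 8706 to 20889 in epcr1/2, with 3 of 3 markers present. Summed root markers, 4 of 4 present, ranged from 729 to 853, from 809 to 942 and from 1240 to 1729 FPKM in the same order, with nearly all of the sum from PYK10. Of the other root markers, CASP1, of the endodermis, fell from 28.4 ± 3.62 FPKM in WT (SD, n = 3) to 5.77 ± 1.21 in arid2/3/4 (limma, adjusted p = 0.000364) and 3.04 ± 0.414 in epcr1/2 (adjusted p = 7.81e-05). WER, of the epidermis, fell from 3.04 ± 0.779 to 0.673 ± 0.0684 (adjusted p = 0.00343) and 1.33 ± 0.394 (adjusted p = 0.0156). SCR stood at 16.6 ± 8.94 FPKM in WT, 15.6 ± 6.99 in arid2/3/4 and 13.4 ± 6.61 in epcr1/2. It passed in neither mutant (limma, adjusted p = 0.962 and 0.712). With the replicate number as a block, SCR fell in epcr1/2 (adjusted p = 0.049). PYK10 did not pass in arid2/3/4 (adjusted p = 0.547) and rose in epcr1/2, from 730 ± 54.8 to 1387 ± 273 FPKM (adjusted p = 0.0225). Shoot meristem markers ranged from 2.09 to 4.29, from 7.04 to 8.89 and from 20.3 to 40.6. Seed markers summed to at most 0.943 FPKM in WT and to 37.8 to 239 in arid2/3/4 and 72.6 to 169 in epcr1/2, and flower markers to at most 1.00, 9.46 and 2.58. The floral gene AG stayed under 0.5 FPKM in every library. No leaf and shoot marker passed against WT in the main fit. With the replicate block, 3 of 3 fell in arid2/3/4 (limma, adjusted p from 0.0215 to 0.0497), where 45.1% of all tested genes were called. In epcr1/2 the block gave 2 falls (adjusted p = 0.0167 and 0.0223), where 51.2% were called. The part of these tissue markers in the results below was not tested, and in whole seedlings fewer cells of a type and less RNA per cell cannot be told apart.

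The 5 mutated genes are spread over chromosomes 1, 2, 4 and 5 of the TAIR10.1 assembly. ARID3 (chr1:7276943-7281236, minus strand, 13 exons) and ARID4 (chr1:28708339-28712968, minus strand, 15 exons) lie on the same chromosome, and ARID2 (chr2:7558916-7563781, plus strand, 13 exons) lies on chromosome 2. EPCR1 (chr4:15731443-15737807, plus strand, 5 exons) has the longest coding sequence of the 7, with 4623 bases in its longest model, and EPCR2 (chr5:1335873-1341534, minus strand, 4 exons) has 2301. Of the paralogues, ARID1 (chr2:18935236-18938447, minus strand) has 2 exons and ARID5 (chr3:15209831-15214947, minus strand) has 16.

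The related genes could share reads if their transcripts were alike, so the longest exact stretch common to their exons was read from the TAIR10.1 genome. ARID2, ARID3 and ARID4 share 21 bases, all of them coding, shown here in capitals with the bases on either side, 5′ to 3′ on the strand of the gene.
ARID2: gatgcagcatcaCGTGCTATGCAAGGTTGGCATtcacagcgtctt
ARID3: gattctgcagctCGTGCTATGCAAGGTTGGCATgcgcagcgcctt
ARID4: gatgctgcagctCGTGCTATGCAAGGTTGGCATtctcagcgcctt
These windows lie at chr2:7562414-7562458 on the plus strand in exon 7 of ARID2, and on the minus strand at chr1:7278512-7278556 in exon 8 of ARID3 and chr1:28710310-28710354 in exon 8 of ARID4. Within the trio the longest common run was 29 bases for ARID3 and ARID4, 23 for ARID2 and ARID4 and 21 for ARID2 and ARID3. For EPCR1 and EPCR2 it was 14 bases, in capitals in the next pair.
EPCR1: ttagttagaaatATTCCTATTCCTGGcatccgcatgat
EPCR2: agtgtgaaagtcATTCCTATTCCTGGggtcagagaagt
This pair lies at chr4:15735485-15735522 on the plus strand, in exon 3 of EPCR1, and at chr5:1339203-1339240 on the minus strand, in exon 2 of EPCR2. ARID1 shared 11 bases with ARID2 and 12 with ARID5, and ARID5 shared 12 with ARID3 and 12 with ARID4. No exon window of 50 bases of any of the 7 genes occurred in another of them. Every such window was found at a single place in the genome for ARID1 to ARID5 and EPCR1, and 99.8% of the 4880 windows were for EPCR2.

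In WT seedlings ARID2 was the highest of the 7 genes and ARID1 the lowest, with the other five close together between them. ARID2 stood at 22.5, 20.1 and 22.5 FPKM in WT replicates 1, 2 and 3, between the 72.5th and 73.9th percentile of all genes above 0. Its libraries did not overlap those of the next gene, EPCR1, which read 11.8, 10.5 and 16.4 FPKM. ARID4 followed at 11.4, 10.9 and 13.6, ARID5 at 10.5, 9.13 and 12.6, EPCR2 at 8.36, 6.99 and 11.8, and ARID3 at 8.68, 8.22 and 8.65. Each of these neighbours in the order overlapped the next. More distant genes did not all overlap: every WT library of EPCR1, ARID4 and ARID5 lay above every library of ARID3. ARID1 read 4.00, 2.29 and 3.33 FPKM, below every library of ARID3. All 7 genes were above the filter of 0.5 FPKM in at least 3 of the 9 libraries, so all 7 were among the 21168 genes tested.

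**Figure D1:**
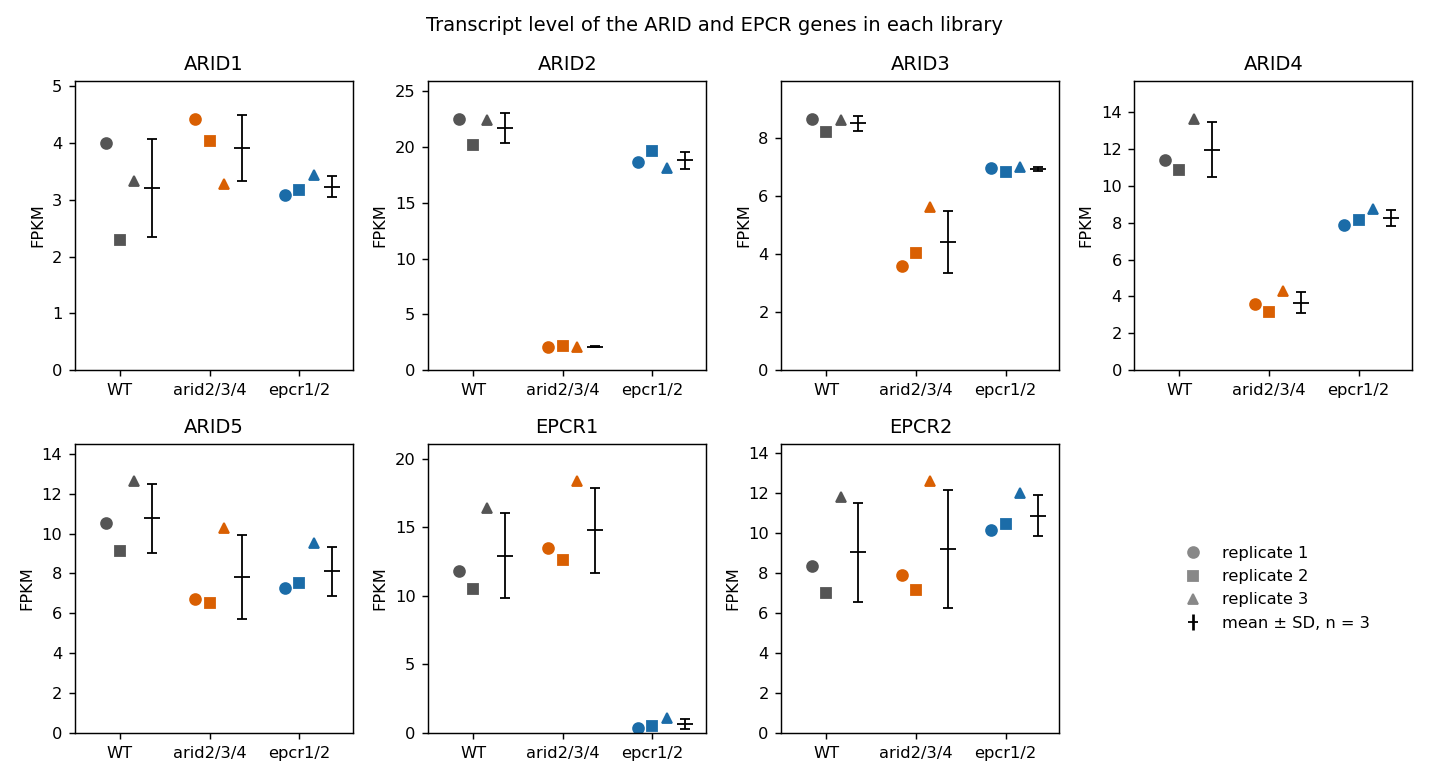
FPKM of the 7 genes in each of the 9 libraries, by genotype; each point is a library. ARID2 falls from 20.1 FPKM or more in WT to at most 2.15 in arid2/3/4, EPCR1 falls to at most 1.08 in epcr1/2, and EPCR2 stays at 10.1 or more in the epcr1/2 libraries.

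The 3 ARID genes named in the arid2/3/4 genotype each fell in that mutant, to very different degrees, and none was absent. ARID2 read 2.12, 2.15 and 2.06 FPKM in the 3 arid2/3/4 libraries, against 20.1 to 22.5 in WT. The mutant libraries were nearly identical to each other and lay far below every WT library. Its log2 fold change was -2.87 ± 0.12 (SE, limma, 3 libraries a genotype, adjusted p = 3.27e-05), and the mutant mean was 9.72% of the WT mean.

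ARID4 read 3.58, 3.13 and 4.28 FPKM in arid2/3/4, against 10.9 to 13.6 in WT, without overlap. It fell by 1.48 ± 0.15 on the log2 scale (limma, adjusted p = 0.000769), to 30.6% of the WT mean. Set against the WT library of the same number, it stood at 31.4%, 28.8% and 31.4%. Here and below, a shared number is not shown to mean paired libraries. Replicates 1 and 2 were also much alike, so these are not 3 independent ratios.

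ARID3 kept the most transcript of the trio. It read 3.60, 4.04 and 5.62 FPKM in arid2/3/4, against 8.22 to 8.68 in WT, again without overlap, and replicate 3 was the highest of the mutant libraries. It fell by 0.83 ± 0.16 on the log2 scale (limma, adjusted p = 0.00945), to 51.9% of the WT mean, and stood at 41.5%, 49.1% and 64.9% of the WT library of the same number. With replicates 1 and 2 of each genotype averaged into 1 sample, the fall of ARID3 was 0.76 and no longer passed (-0.76, adjusted p = 0.0742). Whether the transcript left over in ARID2, ARID3 and ARID4 is full length cannot be read from one value per gene.

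In total 3 of the 7 genes fell in arid2/3/4 and 0 rose, all 3 of them mutated, where 20.8% of all tested genes were called, 12% lower and 8.78% higher. With the replicate number as a block, 45.1% of tested genes were called, 25.7% lower and 19.4% higher. Libraries below all of WT without overlap, as for these 3 genes, were found in 20.7% of all tested genes. The median log2 fold change of the 7 was -0.43, against -0.05 over all tested genes. That median is the value of ARID5, since the 3 mutated genes lie below it. Genes mutated in this genotype were put in the list by choice, so the median describes no shift of a set.

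The 2 EPCR genes differed from each other in epcr1/2. EPCR1, the larger gene, read 0.344, 0.514 and 1.08 FPKM in the mutant, against 10.5 to 16.4 in WT. The groups were far apart, and the mutant mean was 5.003% of the WT mean, the lowest share kept by any of the 5 mutated genes in its own mutant. Its log2 fold change was -3.08 ± 0.24 (limma, adjusted p = 0.00019). Against the WT library of the same number EPCR1 stood at 2.91%, 4.90% and 6.58%. At the depth estimated above, the values of replicates 1 and 2 correspond to about 57.7 and 61.8 fragments and that of replicate 3 to about 331. The last rests on the less certain depth of replicate 3.

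EPCR2 was not lower in the mutant labelled epcr1-/-epcr2-/-. It read 10.1, 10.4 and 12.02 FPKM in epcr1/2, against 8.36, 6.99 and 11.8 in WT, and each mutant library was higher than the WT library of its own number, at 121.4%, 149.4% and 101.9%. The groups overlapped, because WT replicate 3 lay among the mutant libraries. The log2 difference of 0.27 ± 0.25 did not pass the test (limma, adjusted p = 0.474), and its 95% confidence interval ran from -0.30 to 0.83. The level of EPCR2 therefore does not check the epcr2 label, and the kind of lesion is not given in the sources used here.

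A count of reads for EPCR2 has one limit that the other mutated genes do not share. The longest EPCR2 model overlaps the exons of CYP77A4 (AT5G04660), a cytochrome P450 gene on the opposite strand, by 1773 bases, and a noncoding RNA gene (AT5G00975) by 192, while the shortest EPCR2 model overlaps neither. Whether the counting used strand is not given in the sources used here, so reads from the overlap cannot be told apart. CYP77A4 itself was listed at 0, 0 and 4.39 FPKM in WT, 1.48, 0.584 and 3.04 in arid2/3/4 and 2.40, 0.698 and 4.45 in epcr1/2. Like EPCR2, it was highest in replicate 3 of each genotype, and in every epcr1/2 library it was above the WT library of the same number. In arid2/3/4 the directions differed in replicates 1 and 3. EPCR2 stood there at 94.3% and 106.6% of the WT library of the same number. CYP77A4 read 1.48 against 0 and 3.04 against 4.39 FPKM. In WT replicates 1 and 2, where CYP77A4 was at 0, EPCR2 read 8.36 and 6.99 FPKM. The part of this overlap in the EPCR2 values was not tested. ARID5 overlaps the exons of AT3G43230 on the opposite strand by 23 bases only.

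Each mutant also shows what the other group of subunits did when one group was mutated. Both comparisons use the same 3 WT libraries. In epcr1/2 the intact genes ARID2, ARID3 and ARID4 all read lower than in WT without overlap, as did 28.1% of all tested genes. ARID4 passed the test, where 17.8% of all tested genes were called lower.

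ARID4 read 7.90, 8.12 and 8.73 FPKM in epcr1/2, below all 3 WT libraries, and fell by 0.48 ± 0.15 on the log2 scale (limma, adjusted p = 0.0454), to 69.0% of the WT mean. That call was close to the threshold and did not pass in 13 of 19 other settings, among them the omission of any single WT or epcr1/2 library or of arid2/3/4 replicate 1 or 2, with adjusted p from 0.000427 to 0.143 over all 19. The median over tested genes was lower in the epcr1/2 libraries than in WT, a shift of -0.18, and after each library was centred on its median ARID4 differed by -0.31 (adjusted p = 0.0618).

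ARID3 read 6.97, 6.85 and 7.003 FPKM in epcr1/2, which is 81.5% of its WT mean (log2 fold change -0.26 ± 0.16, limma adjusted p = 0.264). ARID2 read 18.6, 19.6 and 18.1 FPKM, or 86.6% of its WT mean (-0.20 ± 0.12, adjusted p = 0.252). Neither passed, though neither overlapped WT, and after the centring their log2 differences were -0.08 and -0.02. Libraries that do not overlap in the lower direction were found in 28.1% of all tested genes in this comparison.

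In the opposite case, EPCR1 and EPCR2 in arid2/3/4, neither gene passed in either direction. EPCR1 read 13.4, 12.6 and 18.3 FPKM, each above the WT library of the same number, at 113.7%, 120.1% and 111.7% (log2 difference 0.19 ± 0.24, 95% confidence interval -0.37 to 0.75, limma adjusted p = 0.639). EPCR2 read 7.88, 7.14 and 12.6 FPKM, against 8.36, 6.99 and 11.8 in WT (0.01 ± 0.25, interval -0.55 to 0.58, adjusted p = 0.982). With the replicate block the SE was 0.11 for EPCR1 and 0.13 for EPCR2, and again neither passed (adjusted p = 0.19 and 0.947).

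In total 2 of the 7 genes, EPCR1 and ARID4, fell in epcr1/2 and 0 rose, where 28.5% of all tested genes were called, 17.8% lower and 10.8% higher. The block moved that background to 51.2%, with 31.9% lower and 19.3% higher. The median log2 fold change of the 7 was -0.26, the value of ARID3, against -0.12 over all tested genes. The list again holds genes mutated in this genotype by choice, so this median describes no shift of a set.

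**Figure D2:**
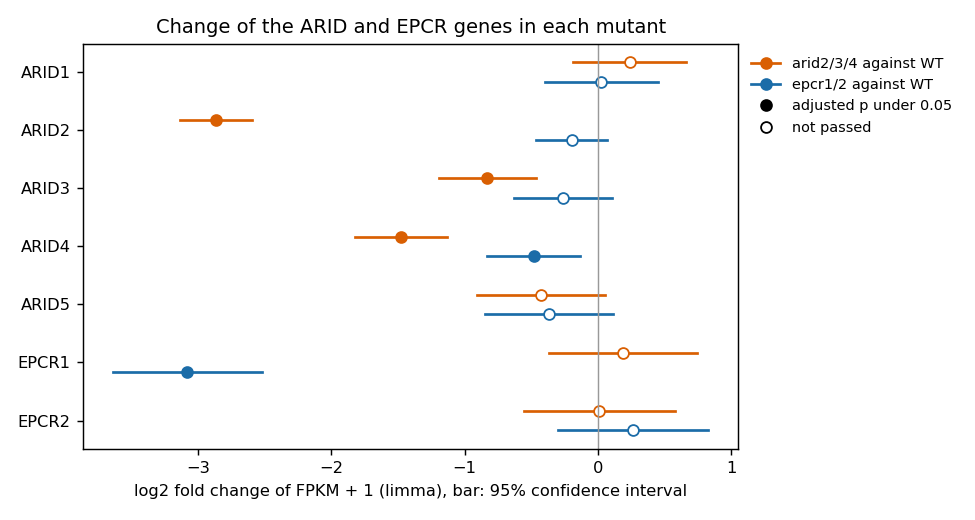
Log2 fold change of FPKM + 1 against WT for the 7 genes in arid2/3/4 and epcr1/2, with 95% confidence intervals from limma; filled points passed at adjusted p under 0.05. ARID2, ARID3 and ARID4 are filled in arid2/3/4 and EPCR1 and ARID4 in epcr1/2, while EPCR2 sits at 0.27 in epcr1/2 with an interval across 0.

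Neither paralogue, ARID1 or ARID5, passed as higher in either mutant. ARID5 read 6.70, 6.51 and 10.3 FPKM in arid2/3/4 and 7.26, 7.54 and 9.53 in epcr1/2, against 10.5, 9.13 and 12.6 in WT. Each mutant library was below the WT library of the same number, at 63.7%, 71.3% and 81.4% in arid2/3/4 and 69.0%, 82.5% and 75.6% in epcr1/2, although the groups overlapped through the higher replicate 3. The log2 fold changes were -0.43 ± 0.21 (limma, adjusted p = 0.186) and -0.37 ± 0.21 (adjusted p = 0.233), and neither passed. With the replicate number as a block, ARID5 fell in both, by the same log2 amounts, with adjusted p = 0.0186 in arid2/3/4 and 0.0275 in epcr1/2. It passed in arid2/3/4 without replicate 3 of that mutant (-0.62, adjusted p = 0.0355). With replicates 1 and 2 averaged into 1 sample, it passed in neither mutant (adjusted p = 0.166 and 0.153).

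ARID1 read 4.43, 4.03 and 3.28 FPKM in arid2/3/4 and 3.08, 3.17 and 3.44 in epcr1/2, against 4.00, 2.29 and 3.33 in WT. The WT libraries spanned nearly the whole range of the mutants, and the differences of 0.24 ± 0.18 (limma, adjusted p = 0.408) and 0.03 ± 0.18 (adjusted p = 0.936) did not pass. The direction in epcr1/2 turned with the processing, to -0.14 without WT replicate 2.

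Because FPKM is scaled by length, the levels of the 5 ARID genes can be added. The sum was 56.2 ± 5.08 FPKM in WT (SD, n = 3), 21.9 ± 3.11 in arid2/3/4 and 45.3 ± 1.49 in epcr1/2. The 3 genotypes did not overlap: 50.7 to 60.7, 19.9 to 25.5 and 43.9 to 46.8. Of all tested genes, 20.7% lay below WT without overlap in arid2/3/4 and 28.1% in epcr1/2. In arid2/3/4 the sum holds the 3 mutated genes. In epcr1/2 the median over tested genes was itself lower than in WT, a shift of -0.18 on the log2 scale. ARID2 supplied 38.7 ± 1.51% of the sum in WT and 41.5 ± 2.46% in epcr1/2, but 9.76 ± 1.46% in arid2/3/4. There ARID5 supplied the most, 35.3 ± 4.31% against 19.1 ± 1.49% in WT, without having risen itself, and ARID1 supplied 18.3 ± 4.74% against 5.67 ± 1.25%. ARID3 held 15.2 ± 0.992% of the sum in WT and 20.0 ± 2.21% in arid2/3/4, and ARID4 21.3 ± 1.27% and 16.7 ± 0.885%. A share of a sum moves when another part of it moves, so these shares give no test of ARID1 or ARID5.

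**Figure D3:**
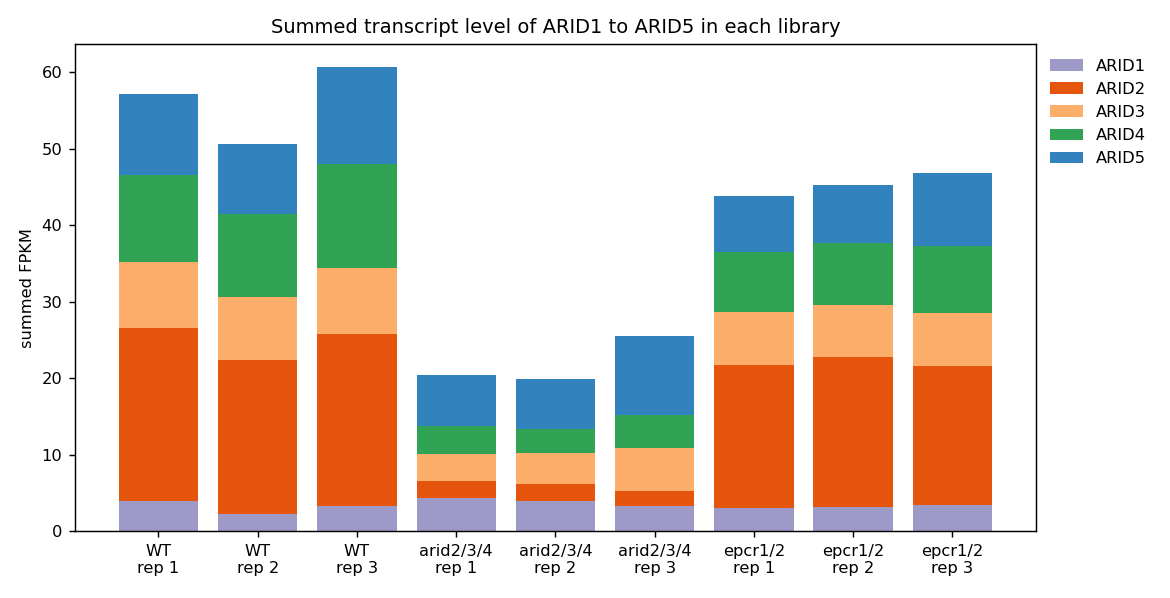
Summed FPKM of ARID1 to ARID5 in each of the 9 libraries, with each gene as a segment of the bar. The WT bars reach 50.7 to 60.7 FPKM, the epcr1/2 bars 43.9 to 46.8 and the arid2/3/4 bars 19.9 to 25.5, where the ARID2 segment is at most 2.15 FPKM high.

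The pair of EPCR genes summed to 22.0 ± 5.58 FPKM in WT, 24.0 ± 6.05 in arid2/3/4 and 11.5 ± 1.39 in epcr1/2 (SD, n = 3). EPCR1 supplied 58.9 ± 0.956% of that sum in WT and 62.1 ± 2.42% in arid2/3/4, so the ratio of the pair was steady while their sum varied between libraries. In epcr1/2 EPCR1 supplied 5.40 ± 2.55%, and nearly all of the remaining EPCR transcript was EPCR2.

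Set directly against each other, the mutants differed in the genes each one carries. ARID2 was lower in arid2/3/4 than in epcr1/2 by 2.67 ± 0.12 on the log2 scale (-2.67, limma, adjusted p = 9.61e-05), ARID4 was lower by 0.99 ± 0.15 (-0.99, adjusted p = 0.00708) and EPCR1 was higher by 3.27 ± 0.24 (adjusted p = 0.000485). In this comparison 10.5% of all tested genes were called, 4.77% lower and 5.71% higher, and 28.5% with the replicate block, 11.7% lower and 16.8% higher. ARID3 was lower in arid2/3/4 in every library, at 3.60 to 5.62 FPKM against 6.85 to 7.003, as were 12.6% of all tested genes. Its log2 difference of -0.57 ± 0.16 did not pass (adjusted p = 0.0599), and it did with the block (adjusted p = 0.0224), after centring (-0.67, adjusted p = 0.0173) and without replicate 3 of arid2/3/4 (-0.72, adjusted p = 0.0098). With replicates 1 and 2 averaged into 1 sample, ARID3 differed by -0.49 (adjusted p = 0.207), and ARID4 no longer passed (-0.97, adjusted p = 0.0702).

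The remaining genes were not told apart between the mutants. ARID5 differed by -0.06 ± 0.21 (interval -0.54 to 0.42, limma adjusted p = 0.913), ARID1 by 0.21 ± 0.18 (adjusted p = 0.553) and EPCR2 by -0.25 ± 0.25 (interval -0.82 to 0.31, adjusted p = 0.602). In arid2/3/4 the order of levels ran from EPCR1 through EPCR2, ARID5, ARID3, ARID1 and ARID4 to ARID2, the reverse of the place ARID2 holds in WT, at the 27.9th to 28.6th percentile. The steps from EPCR2 to ARID5, from ARID3 to ARID1 and from ARID1 to ARID4 overlapped. In epcr1/2 the order was ARID2, EPCR2, ARID4, ARID5, ARID3, ARID1 and EPCR1, with an overlap only between ARID4 and ARID5.

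The offset of replicate 3 was not the same for each gene. The ratio of replicate 3 to the mean of replicates 1 and 2 was 1.54 for EPCR2 and 1.47 for EPCR1 in WT, and 1.68 and 1.41 in arid2/3/4. In epcr1/2 it was 2.52 for EPCR1, from a low level, and 1.17 for EPCR2. For ARID5 it was 1.28, 1.55 and 1.29 in WT, arid2/3/4 and epcr1/2. ARID2 barely moved, at 1.05, 0.968 and 0.947. ARID3 moved in arid2/3/4 alone, at 1.47 against 1.02 in WT and 1.01 in epcr1/2, and ARID4 stood at 1.23, 1.27 and 1.09. On the log2(FPKM + 1) scale, the shift of all tested genes between replicate 3 and the others in WT had a median of 0.13 and ran from -0.76 to 0.91 between the 10th and 90th percentile. ARID4, ARID5, EPCR1 and EPCR2 shifted by 0.27, 0.33, 0.52 and 0.57 in WT, above that median and within that range. What sets replicate 3 apart is not given in the labels.

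**Figure D4:**
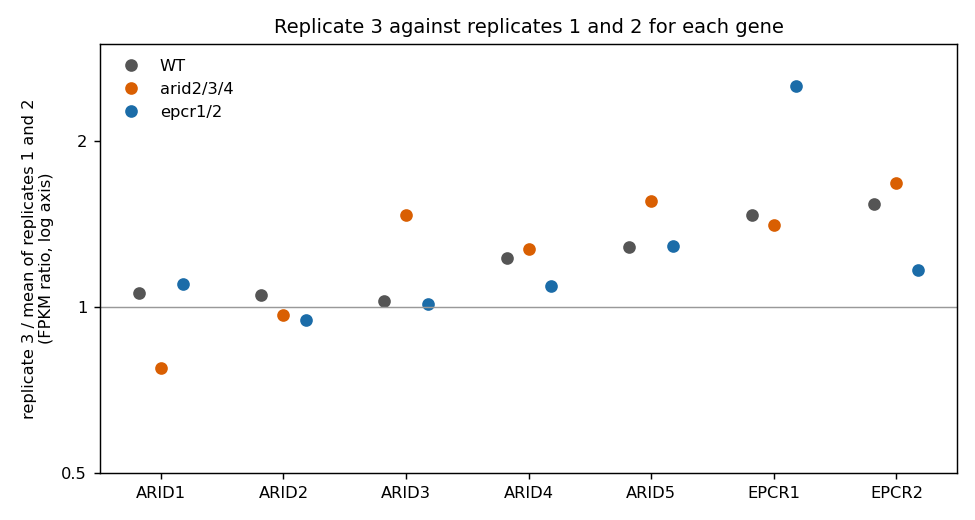
Ratio of replicate 3 to the mean of replicates 1 and 2 in FPKM for each of the 7 genes, on a log axis, with a point per genotype. ARID2 stays near 1 in every genotype, ARID5, EPCR1 and EPCR2 lie above 1 in every genotype, and EPCR1 in epcr1/2 is highest at 2.52.

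Other genes with the most similar pattern were found by the root mean square difference over the 9 libraries after each gene was centred on its own mean of log2(FPKM + 1). This difference is not scaled by how far a gene moves, so genes that move more tend to have larger ones. The SD of ARID2 over the libraries on that scale was 1.39. Its nearest genes were MEMB12, a membrin of vesicle transport, at 0.21 and AT3G57810 at 0.23. MEMB12 read 6.15, 4.32 and 5.18 FPKM in WT, 0.169, 0.0996 and 0.212 in arid2/3/4 and 6.05, 5.26 and 5.44 in epcr1/2. EPCR1, with an SD of 1.61, was nearest BET10 at 0.32 and AT4G37020 at 0.35. Neither ARID2 nor EPCR1 had a gene within 0.15. AT4G37020 read 9.65, 8.79 and 10.3 FPKM in WT, 0.307, 0.502 and 0.374 in epcr1/2, and 7.24, 6.95 and 8.27 in arid2/3/4.

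ARID4, lower in arid2/3/4 than in epcr1/2 and in both below WT, was most like XPB2, a DNA helicase of the TFIIH type, and ROS4, a histone acetyltransferase linked to active DNA demethylation, both at 0.10. ROS4 read 7.20, 6.22 and 6.86 FPKM in WT, 1.68, 1.28 and 2.46 in arid2/3/4 and 4.05, 4.81 and 4.61 in epcr1/2. XPB2 read 5.98, 6.13 and 6.86, then 1.74, 1.44 and 1.60, then 3.52, 4.38 and 4.13 in the same order. For ARID4, 18 genes lay within 0.15. For ARID3, whose nearest were IQD28 at 0.085 and AT4G02005 at 0.088, there were 58.

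A fixed limit of 0.15 tends to take in more genes when the gene itself moves little. The SD was 0.296 for ARID5, 0.299 for EPCR2 and 0.212 for ARID1, against 0.664 for ARID4. The counts are therefore not compared between the 7 genes. ARID5 had 531 within 0.15, the nearest being AT2G01440 at 0.041, and EPCR2 had 235, the nearest being CHR17, a chromatin remodelling ATPase of the ISWI type, at 0.066. ARID1 had 95, with the protein kinase gene SNRK2-8 at 0.098 and the heat shock factor gene HSFA1E at 0.10. With 9 libraries that share genotype and replicate number, these distances describe the table and carry no test.

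Of 11 listed partners of the complexes, 1 was called in each mutant, where 20.8% of all tested genes were called in arid2/3/4 and 28.5% in epcr1/2. HDA6, a histone deacetylase, rose in arid2/3/4 by 0.50 ± 0.13 on the log2 scale (limma, adjusted p = 0.0298), from 19.0 ± 1.41 to 27.2 ± 2.26 FPKM (SD, n = 3), and the other 10 did not pass. In epcr1/2 UBP5, a ubiquitin protease, fell by 0.53 ± 0.14 (adjusted p = 0.026), from 8.93 ± 0.565 to 5.91 ± 0.745 FPKM, and again 10 did not pass. The call of HDA6 was lost in 11 of the 19 other settings, among them without any WT replicate or replicate 1 or 2 of either mutant, and that of UBP5 in 8, among them without any WT replicate or epcr1/2 replicate 1 or 3. The median log2 fold change of the 11 was -0.12 in arid2/3/4 and -0.12 in epcr1/2, against -0.05 and -0.12 over all tested genes. With the replicate block, PWWP2, TRB3, HAM1 and HAM2 also fell in arid2/3/4, with adjusted p of 0.0443, 0.0203, 0.0263 and 0.0489, which makes 5 of 11 against 45.1% of all tested genes. In epcr1/2 the block added falls of PWWP2 (adjusted p = 0.012) and TRB3 (adjusted p = 0.0199) and a rise of HDA6 (adjusted p = 0.0456). With it 3 of the 11 fell and 1 rose, where 51.2% of all tested genes were called. None of these calls gained under the block passed with replicates 1 and 2 averaged into 1 sample, with adjusted p from 0.0722 to 0.254. HAM1 and HAM2 are MYST histone acetyltransferases, and TRB3 is a telomere repeat binding protein.

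The 4 ARID genes of another class carry an HMG box beside the ARID domain, and AT1G55650 was below the filter. None of the other 3 passed in arid2/3/4, where 20.8% of all tested genes were called, and all 3 did in epcr1/2, where 28.5% were. AT1G04880 rose there, from 0.309 ± 0.119 to 1.14 ± 0.167 FPKM (log2 fold change 0.71 ± 0.18, limma, adjusted p = 0.0196). Every WT library of AT1G04880 was under the filter of 0.5 FPKM, so it was tested only because of its level in the mutants. AT3G13350 fell, from 11.3 ± 0.816 to 6.98 ± 0.277 FPKM (-0.62 ± 0.13, adjusted p = 0.00877). AT1G76110 fell as well, from 16.9, 15.7 and 54.2 FPKM in WT to 2.17, 1.88 and 6.94 (-2.61 ± 0.69, adjusted p = 0.0245), and read 4.57, 5.36 and 21.04 in arid2/3/4. With the block, AT1G76110 fell (adjusted p = 0.000714) and AT1G04880 rose (adjusted p = 0.016) in arid2/3/4 too. With replicates 1 and 2 averaged into 1 sample, AT1G76110 passed there (adjusted p = 0.0295) and AT1G04880 did not (adjusted p = 0.0822). The epcr1/2 calls ended in 4 settings for AT1G04880, without WT replicate 1 or 2 or epcr1/2 replicate 2 or 3, and in 3 for AT1G76110, without WT replicate 3 or epcr1/2 replicate 1 or 2. That of AT3G13350 ended after centring, after quantile normalization and with replicates 1 and 2 averaged.

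The Enhancer of Polycomb-like genes of the NuA4 histone acetyltransferase complex, EPL1A and EPL1B, are the nearest listed relatives of the EPCR genes, and neither passed in either mutant. EPL1B stood at 5.28 ± 1.40 FPKM in WT and 2.46 ± 1.17 in epcr1/2 (-0.89 ± 0.30, limma, adjusted p = 0.0621), and with the block it fell (adjusted p = 0.00136). EPL1A differed by -0.52 ± 0.26 there (adjusted p = 0.182, and 0.0513 with the block).

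**Figure D5:**
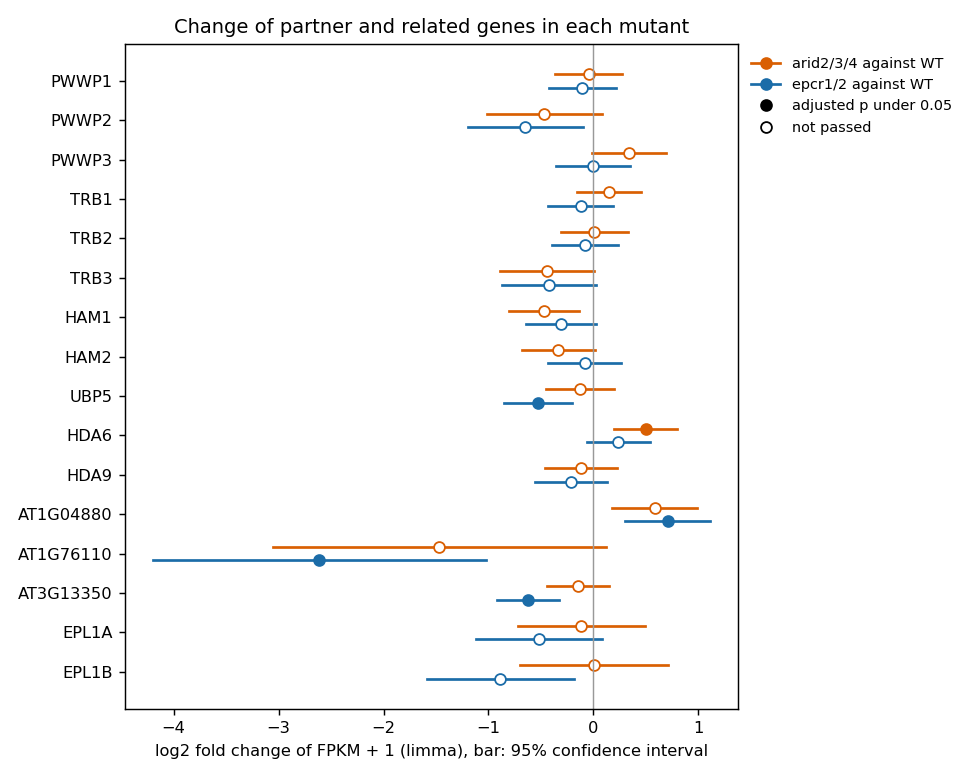
Log2 fold change of FPKM + 1 against WT, with 95% confidence intervals from limma, for the 16 tested partners and relatives of the ARID and EPCR genes in both mutants; filled points passed at adjusted p under 0.05. HDA6 is filled at 0.50 in arid2/3/4, and UBP5, AT1G04880, AT1G76110 and AT3G13350 are filled in epcr1/2.

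The nearest genes on each side that do not overlap the 7 were also read out, chosen by position with the values already known. Of 14 such genes 11 were tested, and 1 was called in arid2/3/4 and 4 in epcr1/2, beside 20.8% and 28.5% of all tested genes. In arid2/3/4, ESC, an AT-hook protein gene 2870 bases after ARID3, fell by 0.997 ± 0.27 on the log2 scale (limma, adjusted p = 0.035), from 7.63, 8.77 and 15.3 FPKM in WT to 4.11, 4.42 and 5.25. It fell in epcr1/2 too (-1.06 ± 0.27, adjusted p = 0.0214), where ARID3 did not pass. The genes on either side of ARID2, AKR2B and NTRA, did not pass in arid2/3/4, with log2 differences of 0.16 ± 0.13 and 0.39 ± 0.21.

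In epcr1/2 AT5G04680, 4153 bases before EPCR2, rose by 1.24 ± 0.19 (limma, adjusted p = 0.00234), from 1.57, 1.57 and 1.98 FPKM to 6.36, 6.22 and 3.89. AT3G43250, 1637 bases before ARID5, rose by 2.62 ± 0.54 (adjusted p = 0.00892), from 0.155, 0.119 and 0 FPKM to 7.39, 9.25 and 2.52. The calls of AT5G04680 and AT3G43250 held in all 19 other settings. AT3G43250 was under the filter of 0.5 FPKM in every WT library, so it was tested only because of its level in the mutants. UBC6, a ubiquitin-conjugating enzyme gene 1097 bases after ARID1, fell by 0.53 ± 0.16 (-0.53, adjusted p = 0.0375). That call ended in 7 settings, among them the omission of any WT replicate, of arid2/3/4 replicate 1 or of epcr1/2 replicate 1 or 2. The ESC call ended in 7 settings in arid2/3/4, among them without WT replicate 2 or 3, arid2/3/4 replicate 1 or 2 or epcr1/2 replicate 2, and in 3 in epcr1/2, among them without epcr1/2 replicate 2 or 3. With the replicate block, which called 45.1% of all tested genes in arid2/3/4, 4 more neighbours passed there. AT3G43250 (adjusted p = 0.00981) and AT5G04680 (0.0459) were higher. UBC6 (0.0471) and AT3G43220, 6691 bases after ARID5 (0.0184), were lower. AT3G43220 was then lower in epcr1/2 as well (adjusted p = 0.0101), where the block called 51.2% of all tested genes. None of these 5 calls passed with replicates 1 and 2 averaged into 1 sample, with adjusted p from 0.0823 to 0.217. AT4G32630, only 110 bases after EPCR1, was under the filter.

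TRB proteins are known to bind the telo-box, so its letters AAACCCTAA were searched on both strands in the 300 bases before the start of each of the 7 genes. No match was found in these windows, and 3.04% of the 27443 protein-coding genes have one in the window of the same length. That says only that these letters are not in these windows.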

How the data were processed

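The authors deposited 1 table of 28117 genes in 9 libraries. Its header names no unit, and the deposited values were read as FPKM from their decimals, unequal sums and steps of low values. Per the submitters' processing notes, STAR 2.5.2b, Cuffdiff and the TAIR10 build were used. Names, gene models and sequences came from TAIR10.1 (RefSeq), where 27839 loci matched by locus tag. The other 278, all organelle genes, were at 0. No counts were used, so no counting interval is given.

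The 21168 genes that reached 0.5 FPKM in 3 or more of the 9 libraries were fitted as log2(FPKM + 1) with limma 3.58.1 in R 4.3.3: a mean per genotype, empirical Bayes with trend, two-sided, Benjamini-Hochberg over all tested genes, adjusted p under 0.05 called. The fit was run on simulated data with 200 genes shifted by a known size. Noise there was independent, of equal spread for every gene and without the offset of replicate 3. That run therefore does not show how the fit performs on these libraries. Since no label speaks of separate cultures, the p-values cover only how far these libraries differ, and that spread may be technical.

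Replicate numbers recur across genotypes in the titles. Deviations from genotype means correlated by 0.63 to 0.84 in the 9 pairs with the same number, which met the limit for a block. They also correlated by 0.66 to 0.76 between numbers 1 and 2, and by -0.82 to -0.68 between number 3 and the others, so the pairing separates replicate 3 and does not show that 1 pairs with 1. The block was fitted beside the main model, and its values stand where they change a call of the 7 genes. They also stand for changed calls against WT of a marker or a listed partner, relative or neighbour. Changed calls of such other genes between the mutants are not given.

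The genes and lists were chosen with earlier results of these data known. The text names the 7 genes, every listed partner or relative that passed in either fit, and for each of the 7 the 2 genes with the smallest difference in pattern. Protein sequences were not used here.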

Additional observations from a re-analysis of the deposited data

How the results depend on the processing

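Each of 21 results (7 genes in 3 comparisons) was recomputed under 19 alternatives. Of the 399 values, 19 newly passed, 15 no longer passed, 11 changed sign, and the rest kept their direction and side of the threshold. The falls of ARID2 and ARID4 in arid2/3/4 and of EPCR1 in epcr1/2 passed in all 19, with log2 values of -3.30 to -2.80, -1.69 to -1.39 and -4.22 to -2.90. The causes of the other changes were not tested.

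No sign change concerned a called gene. With array weights, ARID1 in epcr1/2 turned to -0.066 and EPCR2 in arid2/3/4 to -0.057, and with replicates 1 and 2 only, EPCR2 in arid2/3/4 turned to -0.024. With a library left out, ARID1 in epcr1/2 ranged from -0.14 to 0.16, ARID5 between the mutants from -0.25 to 0.046 and EPCR2 in arid2/3/4 from -0.21 to 0.20.

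Genes called over the whole table moved most. In arid2/3/4 the 4399 became 9545 with the replicate block, 13934 with array weights, 13671 with replicates 1 and 2 only, 2003 with those 2 averaged, and 2169 to 7064 with a library left out. In epcr1/2 the 6039 became 10832 with the block, 14648 with array weights, 13755 with replicates 1 and 2 only and 3708 to 7575 with a library left out. Between the mutants the 2218 became 6039 with the block, 1477 with the compared groups alone, 12518 with array weights, 11396 with replicates 1 and 2 only, 49 with those averaged and 834 to 3284 with a library left out. Of the 7 genes, the 2 called in epcr1/2 became 1 with no filter, quantile normalization, centring, the compared groups alone or replicates averaged, 5 with array weights or replicates 1 and 2 only, and 1 to 2 with a library left out. The 3 called between the mutants became 5 with array weights or replicates 1 and 2 only, and 3 to 4 with a library left out. The 3 in arid2/3/4 became 3 to 4 with a library left out. With replicates 1 and 2 averaged, 2 genes were called in arid2/3/4 and 2 between the mutants. Under the block, apart from the changes given in the report, no call of the 7 genes changed.

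With array weights and with replicates 1 and 2 only, ARID3 (adjusted p = 0.00705 and 0.0456) and ARID5 (0.00181 and 0.0179) also passed in epcr1/2 as lower and EPCR2 (0.00696 and 0.0246) as higher. Both settings lean on libraries that correlate by 0.994 to 0.995. Without counts, depth limits EPCR1 in its mutant and the lowest relatives most.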
